A study of Arabidopsis thaliana with 18 samples.

Results

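The transcriptome of Arabidopsis thaliana seedlings that overexpress LBD38 was compared with that of wild type after nitrogen had been withdrawn from both. The comparison uses 6 of the 18 arrays of the study, chosen by their labels: 3 of the LBD38 overexpresser and 3 of wild type, and all 22746 probe sets that are not array controls. LBD38 belongs to the LATERAL ORGAN BOUNDARIES DOMAIN family of plant transcription factors, and with its close relative LBD37 it is known as a repressor of anthocyanin synthesis and of nitrogen-related genes. Anthocyanins are the red and purple flavonoid pigments that seedlings accumulate when nitrogen runs short. Plants starved of nitrogen also switch on high-affinity nitrate transporters, recycle cell contents by autophagy and lower the expression of photosynthetic genes.

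Every seedling was of the Col-0 ecotype, 9 days old and harvested whole. LBD38 overexpressers, LBD37 overexpressers and wild type without nitrogen grew for 7 days on full nutrition containing 4 mM KNO3, followed by 2 days without added nitrogen. A T-DNA insertion mutant of LBD38 (lbd38), a T-DNA insertion mutant of LBD37 and a second wild-type group had full nutrition for all 9 days. The LBD37 mutant was fitted with the other groups and so enters the pooled standard errors. No comparison with the LBD37 mutant is reported here. Each group has 3 arrays, called biological replicates in the labels without a statement of what was repeated, so p-values measure the spread between these samples. The promoter that drives LBD38 and the number of transgenic lines are not given in the sources used here, and the labels describe both liquid culture and agar plates before a transfer to liquid wells. In whole seedlings, fewer cells of a type and less RNA per cell cannot be told apart.

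Values are log2 signals of Affymetrix ATH1 probe sets, normalized by the authors, so that a difference of 1 is a 2-fold change. The 6 arrays had medians of 7.00 to 7.06, and Pearson's r between replicates over all probe sets was 0.9946 to 0.9970. Root and leaf transcripts were both present: the root glucosidase gene PYK10 read 10.96 to 11.41 and the Rubisco activase gene RCA 13.06 to 13.28 on these arrays. No probe set is paired with LBD38 by name in the annotation used, so the level of the overexpressed gene could not be read by name. LBD16 and LBD29, the members of the family that the annotation pairs with a probe set, had log2 differences of 0.05 and 0.03. They did not pass the test. The largest rise among probe sets with no listed gene was at 252220_at, which read 13.06, 12.93 and 12.96 in LBD38 overexpressers and 7.33, 7.31 and 7.16 in wild type without nitrogen (52.6-fold higher, adjusted p = 4.03e-15). The LBD37 overexpressers read 5.76, 6.29 and 6.47 there, and lbd38 mutants read 8.55, 8.39 and 8.43, against 9.13, 9.13 and 9.25 in wild type with full nutrition (log2 difference -0.71, adjusted p = 0.0103). The annotation does not give the gene that 252220_at detects, and whether it is LBD38 was not tested.

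LBD38 overexpression changed 4076 probe sets (limma, adjusted p under 0.05): 2107 were higher, which is 9.26% of all tested, and 1969 were lower, which is 8.66%. The large changes were mostly falls, with 340 probe sets at least 2-fold lower and 90 at least 2-fold higher. At 35.5% of all probe sets the 3 overexpresser arrays all lay on the same side of the 3 wild-type arrays. With 3 arrays against 3, 10% would do so by chance. Replicate 1 of the overexpresser lay farthest from wild type, and without it the count was 2603, with 1270 higher and 1333 lower.

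The 15 largest falls, like the 15 largest rises below, were taken only from called probe sets whose groups did not overlap. Lack of overlap in these genes was thus fixed by the choice. The falls included genes of nitrate uptake and of starch synthesis. NRT2.5 (AT1G12940) encodes a nitrate transporter of high affinity that starved plants use, and read 6.25, 6.8 and 7.16 in LBD38 overexpressers and 9.99, 9.92 and 10.1 in wild type without nitrogen. The log2 difference was -3.26 (SE 0.21, adjusted p = 2.48e-08). In wild type with full nutrition NRT2.5 read 6.19, 5.98 and 6.15, so the starved overexpresser stood 0.63 above the nitrogen-fed level (adjusted p = 0.0196). APL3 (AT4G39210), a large subunit of the ADP-glucose pyrophosphorylase that feeds starch synthesis, read 5.57, 6.71 and 7.00 in LBD38 overexpressers and 9.10, 9.12 and 9.00 in wild type. The wild-type arrays nearly coincided and the overexpresser arrays spread more widely below them (log2 difference -2.65, SE 0.25, adjusted p = 1.37e-06). The gene listed as cwINV6 (AT5G11920) read 6.28, 7.47 and 6.92 in LBD38 overexpressers and 9.14, 9.12 and 9.25 in wild type (log2 difference -2.28, adjusted p = 1.02e-06). ATGLR1.2 (AT5G48400), a glutamate receptor-like channel gene, read 5.30, 5.40 and 5.64 in LBD38 overexpressers and 7.50, 7.37 and 7.84 in wild type (log2 difference -2.12, adjusted p = 1.05e-07).

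AT1G22160 had the largest fall of the 15: 5.52, 5.44 and 7.06 in LBD38 overexpressers and 9.57, 9.60 and 9.07 in wild type. Its replicate 3 of the overexpresser was well above the other 2 but still below every wild-type array (log2 difference -3.41, SE 0.29, adjusted p = 6.06e-07). AT5G02580 read 5.11, 5.06 and 6.04 in LBD38 overexpressers and 8.97, 8.76 and 8.35 in wild type (log2 difference -3.29, adjusted p = 2.48e-08), and its overexpresser arrays reached the lower quartile of all signals on these arrays, 5.19 to 5.21, where folds are rough. The other falls among the first 15 were AT5G02230, AT1G64360, AT4G33720, AT2G47880, AT1G78410, AT3G62960, AT5G59670, AT1G76960 and AILP1 (AT5G19140), with log2 differences of -2.91, -2.43, -2.36, -2.35, -2.33, -2.31, -2.18, -2.16 and -2.14. AT4G33720 encodes a protein of the pathogenesis-related 1 family, AT1G78410 a VQ-motif protein and AT5G59670 a leucine-rich repeat receptor kinase. Adjusted p-values of these 15 falls ran from 9.54e-10 to 0.00163.

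The nitrogen-starved overexpresser was set beside wild type with full nutrition for the same genes; over all probe sets, 20.2% were higher and 20.5% lower in that comparison, which uses the same LBD38 overexpresser arrays. Of the 15 falls, 11 were not called different from nitrogen-fed wild type, 3 were above it and 1 was below it, with log2 differences of -0.98 to 1.82. The 3 that stayed above were NRT2.5, AT1G64360 (log2 difference 1.38, adjusted p = 0.000162) and AT1G76960 (1.82, adjusted p = 9.58e-06). AILP1 was the one below, at 9.50, 9.62 and 10.51 in LBD38 overexpressers, a mean of 10.76 in nitrogen-fed wild type and 12.13, 12 and 11.9 in starved wild type.

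**Figure D1:**
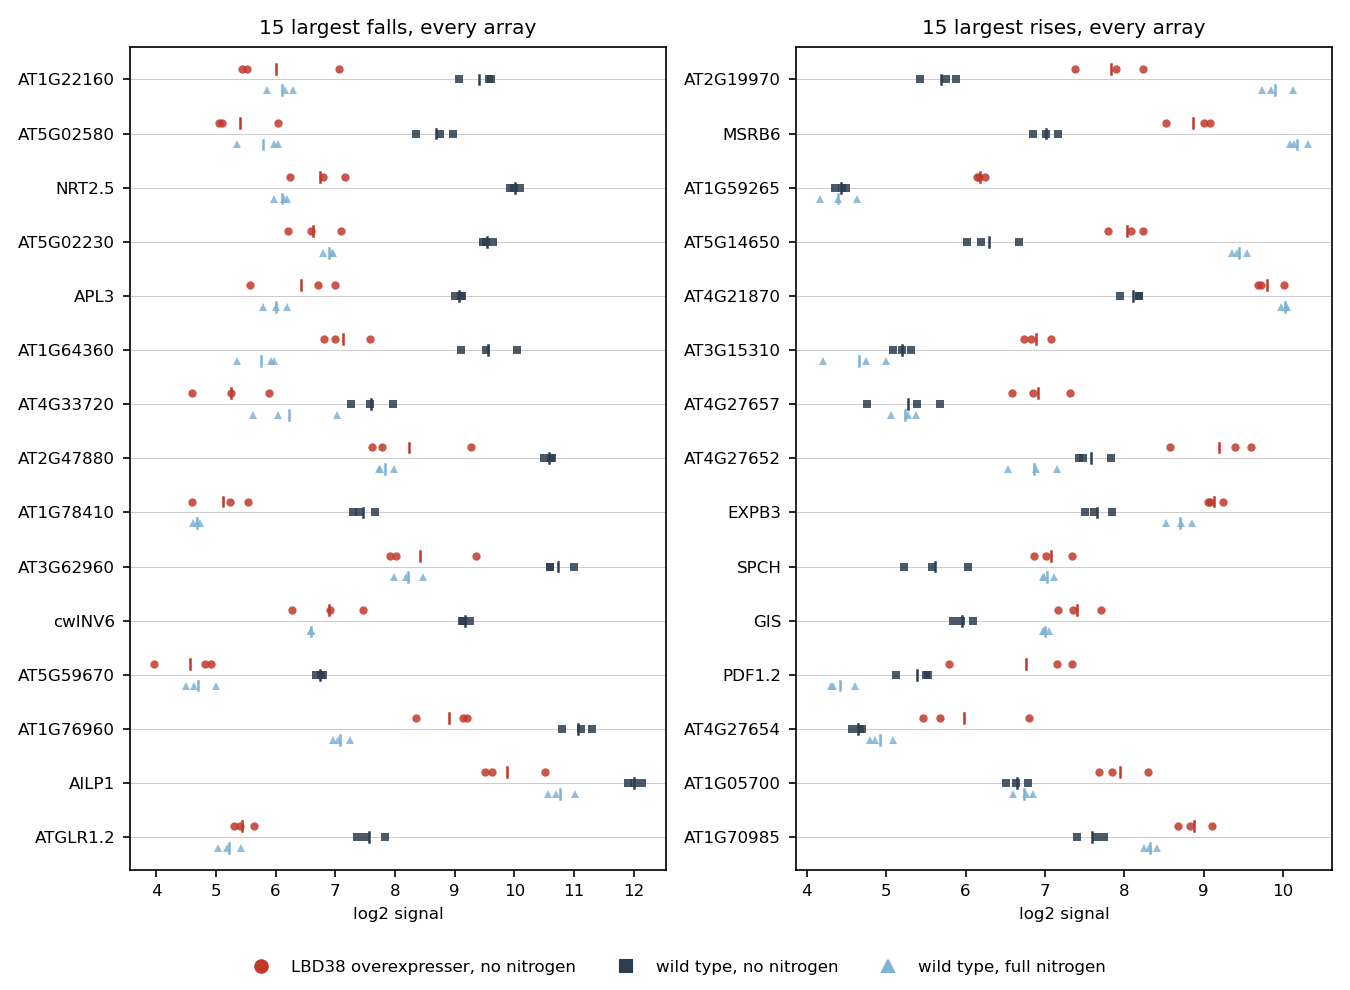
Log2 signal (horizontal axis) of the 15 largest falls (left) and 15 largest rises (right) on every array; points are arrays and short vertical lines are group means. For most falls the overexpresser arrays lie near those of nitrogen-fed wild type, while the rises lie below, at or above it.

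The 15 largest rises had log2 differences of 1.28 to 2.15, and the 15 largest falls of -2.12 to -3.41. Set beside nitrogen-fed wild type, 9 of the 15 were above it, 3 were below it and 3 were not called different, with log2 differences of -2.06 to 2.35. AT2G19970, of the same pathogenesis-related 1 family as AT4G33720, read 7.90, 8.23 and 7.38 in LBD38 overexpressers and 5.75, 5.88 and 5.43 in wild type without nitrogen. The log2 difference was 2.15 (SE 0.23, adjusted p = 4.96e-06). AT2G19970 stayed under nitrogen-fed wild type, which averaged 9.90 (log2 difference -2.06, adjusted p = 9.44e-07). MSRB6 (AT4G04840), a methionine sulfoxide reductase that repairs oxidized proteins, read 9.08, 8.52 and 9.00 in LBD38 overexpressers and 7.17, 7.01 and 6.85 in wild type (log2 difference 1.86, adjusted p = 8.75e-06). It too lay under the nitrogen-fed wild type (log2 difference -1.31, adjusted p = 6.36e-05). The small heat-shock protein gene AT4G21870 read 10.01, 9.68 and 9.72 in LBD38 overexpressers and 8.19, 8.19 and 7.94 in wild type, a rise with little spread (log2 difference 1.69, adjusted p = 7.85e-08).

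Genes of epidermal development and cell-wall growth were among the first 15 rises. SPCH (AT5G53210), the bHLH factor that starts the stomatal lineage, read 7.02, 7.34 and 6.86 in LBD38 overexpressers and 5.23, 5.58 and 6.03 in wild type without nitrogen (log2 difference 1.46, SE 0.16, adjusted p = 7.48e-06). The overexpresser arrays lay near the nitrogen-fed wild-type ones, which read 6.98, 7.12 and 6.99. MUTE, FMA and YAB3, the other measured leaf and stomatal markers, had log2 differences of 0.15, 0.16 and 0.32 and did not pass the test. GIS (AT3G58070), a zinc-finger factor of trichome initiation, read 7.71, 7.16 and 7.35 in LBD38 overexpressers and 6.10, 5.94 and 5.84 in wild type (log2 difference 1.44, adjusted p = 1.02e-05). The beta-expansin gene EXPB3 (AT4G28250) read 9.25, 9.05 and 9.08 in LBD38 overexpressers and 7.50, 7.62 and 7.85 in wild type (log2 difference 1.48, adjusted p = 3.55e-07). Neither gene's groups overlapped, as the choice of the 15 required.

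The plant defensin gene PDF1.2 (AT5G44420) read 7.15, 7.34 and 5.79 in LBD38 overexpressers and 5.13, 5.53 and 5.50 in wild type (log2 difference 1.37, SE 0.42, adjusted p = 0.0298). The groups came close at replicate 3 of the overexpresser, and the call was lost in 7 of 13 alternative settings, with adjusted p up to 0.136. The neighbouring loci AT4G27652, AT4G27654 and AT4G27657 rose by 1.61, 1.33 and 1.64 on the log2 scale. The remaining rises of the first 15 were AT1G59265, AT5G14650, AT3G15310, the receptor kinase gene AT1G05700 and AT1G70985, at 1.76, 1.74, 1.69, 1.3 and 1.28. The probe set of AT1G59265 is of a type that similar transcripts can share. Wild-type arrays of AT1G59265 (4.35, 4.49 and 4.44) and AT4G27654 (4.67, 4.57 and 4.7) lay wholly under the lower quartile of signals, and those of AT4G27657, AT3G15310 and PDF1.2 in part, so that these folds are rough too.

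Of the 36 gene lists examined, 21 had at least 3 measured genes, and each gene was counted once, by its brightest probe set. The annotation names only part of the probe sets, so the lists are incomplete and 7 had no measured gene. Genes called measured are those that it pairs with a probe set of their own. They were 11 of 56 listed for nuclear photosynthesis and 6 of 23 for regulators of the nitrate response. Over all probe sets the median log2 difference was 0.013.

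Late anthocyanin genes were lower in the overexpresser: 4 of 5 measured fell (80%, against 8.66% of all probe sets) and none rose. The list median was -1. The anthocyanin glucosyltransferase gene AT4G14090 read 8.79, 9.10 and 9.32 in LBD38 overexpressers and 10.59, 10.77 and 10.83 in wild type, with no overlap (log2 difference -1.66, SE 0.21, adjusted p = 2.47e-05). It read 8.79, 8.58 and 8.25 in nitrogen-fed wild type. UF3GT (AT5G54060), AT5MAT (AT3G29590) and DFR (AT5G42800), which encode a glycosyltransferase, a malonyltransferase and dihydroflavonol reductase of the pathway, fell by 1.01, 1 and 0.97 on the log2 scale (adjusted p = 0.000241, 0.00039 and 0.00526). UGT78D2, a glucosyltransferase shared with the flavonols, did not pass (log2 difference -0.13). The early flavonoid and flavonol list has 9 genes, of which only 4 were measured: UGT78D1, AT1G06000, CHIL and UGT78D3. These moved the other way, with 4 of 4 higher, against 9.26% of all probe sets. They do not show how the unmeasured genes of the list behaved. The list median was 0.51. UGT78D1 (AT1G30530), a flavonol rhamnosyltransferase, read 9.41, 9.57 and 9.48 in LBD38 overexpressers and 8.75, 8.76 and 8.65 in wild type, with no overlap (log2 difference 0.77, adjusted p = 0.00123). AT1G06000, CHIL (AT5G05270), an enhancer of flavonoid synthesis, and UGT78D3 had log2 differences of 0.61, 0.41 and 0.39. The rise of UGT78D3 was lost without replicate 2 of the overexpresser or replicate 2 or 3 of wild type (adjusted p up to 0.109).

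Among regulators of the nitrate response, 4 of 6 measured genes fell (66.7%, against 8.66% of all probe sets) and 1 rose (16.7%, against 9.26%). The list median was -0.63. The 4 that fell encode GARP-type repressors of the HHO family: AT3G25790, AT1G25550, AT4G37180 and AT1G68670, with log2 differences of -0.90, -0.71, -0.70 and -0.57. AT3G25790 read 4.67, 4.58 and 5.01 in LBD38 overexpressers and 5.80, 5.44 and 5.70 in wild type without nitrogen, with no overlap. It read 4.83, 4.74 and 4.77 in nitrogen-fed wild type. AT1G25550, AT4G37180 and AT1G68670 were instead highest with nitrogen, and the overexpresser lay below nitrogen-fed wild type by more than 3-fold in each, with log2 differences of -2.01, -2.33 and -1.82. AT1G25550 read 6.57, 6.81 and 6.82 in LBD38 overexpressers, 7.35, 7.42 and 7.59 in wild type without nitrogen and 8.53, 8.69 and 9.04 in nitrogen-fed wild type. AT1G49560, of the same family, had a difference of -0.21 (adjusted p = 0.287), and AT3G60320, which encodes a positive regulator of nitrate signalling, rose by 0.26 (adjusted p = 0.0338), a call lost without any 1 of the 6 arrays (adjusted p up to 0.121). The nitrate transporter gene AT2G26690 did not pass (log2 difference -0.22, adjusted p = 0.356), nor did any of 3 measured genes of nitrate reduction and reductant supply (median -0.17).

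The CC-type glutaredoxins, small redox enzymes found in land plants, had 6 of 17 members lower (35.3%, against 8.66% of all probe sets), with a median of -0.12. The 2 that were higher are 11.8%, near the 9.26% of all probe sets, and 9 did not pass. AT2G47880 read 7.79, 7.62 and 9.28 in LBD38 overexpressers and 10.63, 10.61 and 10.49 in wild type (log2 difference -2.35, adjusted p = 1e-05). AT3G62960 read 8.01, 7.92 and 9.35 in LBD38 overexpressers and 11, 10.6 and 10.6 in wild type (log2 difference -2.31, adjusted p = 5.85e-06). Both lay highest in replicate 3 of the overexpresser, still below wild type. AT4G33040, GRX480, AT5G11930 and AT5G18600 fell by 1.54, 1.16, 1.02 and 0.62 on the log2 scale, and AT1G06830 and ROXY1 rose by 0.43 and 0.32. The ROXY1 call was lost in 10 settings, among them the removal of any 1 of the 6 arrays (adjusted p up to 0.14), and that of AT1G06830 without 4 of the arrays in turn (adjusted p up to 0.118). The cluster AT4G15660 to AT4G15700 gave 4 measured genes with log2 differences of -0.14 to 0.22, none past the threshold.

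Transcripts of recycling and senescence fell in part. Of 11 autophagy genes 4 were lower (36.4%, against 8.66% of all probe sets), none was higher and 7 did not pass (median -0.23). The 4 were ATG8E (-0.71), the kinase gene AT3G61960 (-0.56), APG8A (-0.51) and ATG8B (-0.40). The ATG8 and APG8 genes encode the ubiquitin-like protein of the autophagosome. Of 4 senescence and remobilization genes 2 were lower (50%, against the same 8.66%). PPDK (AT4G15530), a pyruvate orthophosphate dikinase that takes part in moving nitrogen out of ageing leaves, read 9.45, 9.92 and 9.66 in LBD38 overexpressers and 10.72, 10.77 and 10.59 in wild type, with no overlap (log2 difference -1.01, adjusted p = 3.6e-06). WRKY53, a senescence regulator, fell by 0.82 on the log2 scale (adjusted p = 0.0148), a call lost without replicate 1 or 3 of the overexpresser or replicate 3 of wild type (adjusted p up to 0.0999). Of 5 starch genes APL3 alone was called.

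**Figure D2:**
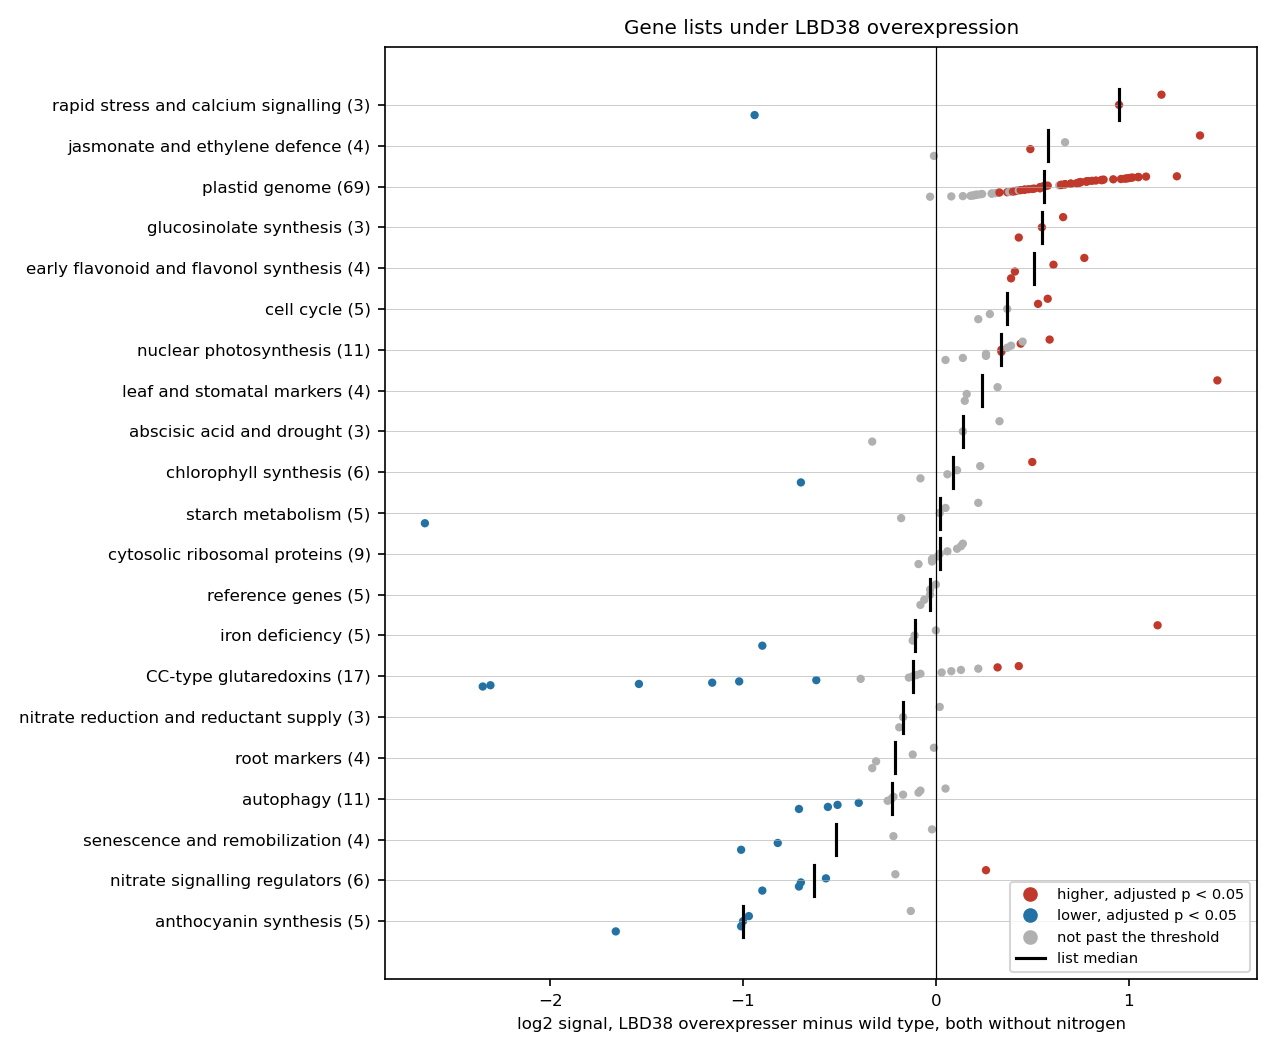
Log2 difference between the LBD38 overexpresser and wild type, both without nitrogen (horizontal axis), for each measured member of the 21 lists with at least 3 members; the number measured is in brackets and black bars are list medians. Anthocyanin genes lie at the low end with a median of -1, and the 69 plastid genes lie almost wholly to the right of 0.

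Genes encoded in the plastid genome were higher in the overexpresser. Of 69 measured, 51 rose and none fell, which is 73.9% higher against 9.26% of all probe sets, and the median log2 difference was 0.56. The plastid genome encodes core subunits of the photosystems, the cytochrome b6f complex, the ATP synthase and the NDH complex, besides part of the plastid's own RNA polymerase and ribosome. The median level of the 69 genes was 9.30, 9.49 and 9.47 on the LBD38 overexpresser arrays and 8.44, 8.66 and 9.00 on the wild-type arrays without nitrogen. These medians did not overlap, and both groups lay under nitrogen-fed wild type, at 9.65, 9.64 and 9.78.

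Each class of plastid genes had members that rose. The rise was called for 6 of 7 photosystem I genes (median 0.64), 11 of 15 photosystem II genes (0.56), 5 of 6 cytochrome b6f genes (0.49) and 5 of 6 ATP synthase genes (0.55). Without replicate 3 of the overexpresser 7 photosystem II genes were called, and without its replicate 1, 3 cytochrome b6f genes. Over all probe sets 1782 and 1270 were higher in those settings, against 2107 with every array. It was also called for 5 of 10 NDH genes (0.38), 2 of 4 RNA polymerase genes (0.44), 13 of 15 ribosomal protein genes (0.74) and 4 of 6 others (0.47). The photosystem I reaction-centre gene psaA read 9.91, 9.49 and 9.91 in LBD38 overexpressers and 8.43, 8.13 and 9.00 in wild type, with no overlap (log2 difference 1.25, SE 0.17, adjusted p = 5.74e-05). The ATP synthase gene atpF read 8.67, 8.69 and 8.69 in LBD38 overexpressers and 7.19, 7.26 and 8.35 in wild type (log2 difference 1.09, SE 0.23, adjusted p = 0.00283). The ribosomal protein gene rpl22 read 10.19, 10.31 and 10.25 in LBD38 overexpressers and 8.89, 8.90 and 9.95 in wild type (log2 difference 1.01, adjusted p = 0.000845). In both, replicate 3 of wild type lay close under the overexpresser. The genes of the photosystem II reaction-centre protein (psbA) and of the Rubisco large subunit (rbcL) did not pass, with log2 differences of -0.03 and 0.14 (adjusted p = 0.949 and 0.734).

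**Figure D3:**
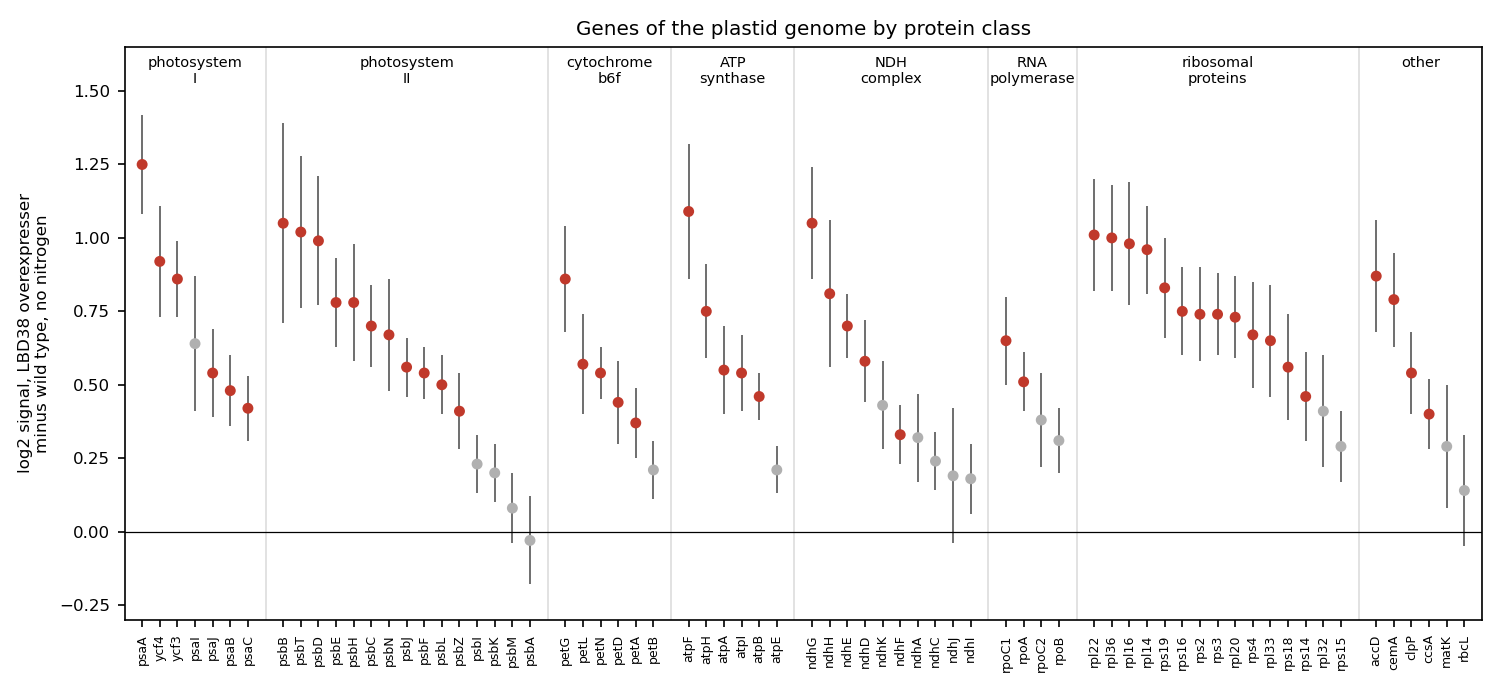
Log2 difference between the LBD38 overexpresser and wild type without nitrogen (vertical axis) for the 69 plastid genes by class; bars are limma standard errors, red points passed an adjusted p of 0.05 and grey points did not. All genes except psbA lie above 0.

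Array controls were read beside the plastid genes. The 25S ribosomal RNA probe set read 9.33, 10.06 and 9.90 in LBD38 overexpressers and 8.30, 9.68 and 9.58 in wild type, groups that overlapped (exact permutation p = 0.4). Replicate 1 of wild type was lowest for this RNA and for the plastid genes, and without it 36 of the 69 were called higher. Over all probe sets 1408 were higher in that setting, against 2107 with every array. All 18 hybridization control probe sets were higher on every LBD38 overexpresser array than on every wild-type array, by 0.18 to 0.47 (exact permutation p = 0.1 for their median, the smallest that 3 against 3 arrays allow). The part of these controls in the plastid result was not tested.

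Of nuclear photosynthesis genes, 4 of 11 were higher (36.4%, against 9.26% of all probe sets) and none lower, with a median of 0.34. They were led by PSBY (log2 difference 0.59, adjusted p = 0.00141) and PSAE-1 (0.44, adjusted p = 0.00364), both photosystem subunits. Without replicate 1 of the overexpresser 2 of the 11 were called, where 1270 of all probe sets were higher, against 2107 with every array. In chlorophyll synthesis, the methyltransferase gene CHLM rose by 0.50 on the log2 scale, the protochlorophyllide reductase gene PORB fell by 0.70, and the other 4 measured genes did not pass. None of 9 cytosolic ribosomal protein genes, 5 reference genes or 4 root markers was called. The median level of the 4 root markers was 9.09, 8.73 and 9.17 in LBD38 overexpressers and 9.52, 9.21 and 8.74 in wild type, so the groups overlapped.

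Smaller lists gave further changes. Of 30 listed glucosinolate genes only 3 were measured, and these 3 rose, where 9.26% of all probe sets were higher. BCAT4 (AT3G19710), an aminotransferase of methionine chain elongation, rose by 0.66, GSTU20 by 0.55 and AT2G31790 by 0.43 on the log2 scale. The call of AT2G31790 was lost without replicate 1 of the overexpresser or replicate 1 of wild type (adjusted p up to 0.0634). The mitotic Aurora kinase genes AUR2 and AUR1 rose by 0.58 and 0.53, which is 40% of 5 measured cell-cycle genes. The other 3 cell-cycle genes did not pass. Of 5 measured iron-deficiency genes 1 was higher (20%, against 9.26% of all probe sets), 1 was lower (20%, against 8.66%) and 3 did not pass. Their median was -0.11. The iron-deficiency peptide gene AT1G47400 read 6.44, 5.59 and 5.88 in LBD38 overexpressers and 4.79, 4.80 and 4.86 in wild type without nitrogen, with no overlap (log2 difference 1.15, SE 0.24, adjusted p = 0.00211). AT3G13610, which makes a precursor of coumarins secreted under iron shortage, fell by 0.90 (adjusted p = 4.05e-05). STZ (AT1G27730), a zinc-finger repressor induced by stress, read 10.61, 10.31 and 9.53 in LBD38 overexpressers and 9.02, 8.76 and 9.15 in wild type (log2 difference 1.17, adjusted p = 0.00416). The calmodulin-like genes CML38 and CML37 went opposite ways, at 0.95 (adjusted p = 0.036) and -0.94 (adjusted p = 0.000825), and the CML38 groups touched at 6.41. The CML38 call was lost in 7 settings, among them the removal of replicate 1 or 2 of either group (adjusted p up to 0.208).

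The lbd38 mutant, in which the level of LBD38 was not tested, was compared with wild type, both with full nutrition. This comparison shares no array with the overexpression comparison. It gave 134 higher and 136 lower probe sets (limma), 0.589% and 0.598% of all. With each array centred on its median there were 196 higher and 125 lower. The total of 270 was 122 or 120 without replicate 1 or 3 of lbd38 and 134 or 171 without replicate 1 or 2 of wild type. Of the 134 that were higher in lbd38, 48 were lower in the LBD38 overexpresser and 13 were higher, which is 35.8% and 9.7% of them, where 8.66% and 9.26% of all probe sets were lower and higher. Of the 136 that were lower in lbd38, 42 were higher in the overexpresser (30.9%) and 13 were lower (9.56%). The share of 30.9% was 17.9% without replicate 1 of the overexpresser and 20.5% without replicate 2 of starved wild type. The background fell too: 1270 and 1634 of all probe sets were higher in the overexpresser in those settings, against 2107 with every array. These 42 and 48 probe sets were 1.99% and 2.44% of those higher and lower in the overexpresser. The 42 include 252220_at. The nutrition of the 2 comparisons differs, and no test of the overlap was made.

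Of the probe sets called in both, 51 have 1 listed gene. The HHO-family gene AT3G25790 read 5.41, 5.58 and 5.42 in lbd38 and 4.83, 4.74 and 4.77 in nitrogen-fed wild type (log2 difference 0.69, adjusted p = 0.00744), opposite to its fall in the overexpresser. AT1G78410 read 5.73, 5.28 and 5.76 in lbd38 and 4.69, 4.74 and 4.62 in nitrogen-fed wild type (log2 difference 0.91, adjusted p = 0.0158), and fell by 2.33 on the log2 scale in the overexpresser. AT4G01390 read 7.65, 8.09 and 8.19 in lbd38 and 5.47, 5.93 and 7.02 in nitrogen-fed wild type (log2 difference 1.84, adjusted p = 0.000517). In the overexpresser it was lower, at 5.73, 5.83 and 5.7 against 6.87, 7.04 and 6.69 in wild type without nitrogen. Of the 6 UGT-family glycosyltransferase genes called in both, 5 had the reverse pattern, lower in lbd38 and higher in the overexpresser. They were UGT84A3, UGT73B1, UGT73C1, UGT76E11 and UGT76C2, while UGT71C1 was higher in lbd38 and lower in the overexpresser. Among the other genes called in both, 13 had this reverse pattern and 21 that of UGT71C1. A further 8 were higher in both and 3 lower in both. UGT87A2 and UGT73B4 were lower in lbd38 but did not pass in the overexpresser (log2 differences -0.16 and -0.09). UGT84A3 (AT4G15490) read 7.63, 7.80 and 7.67 in lbd38 and 8.71, 8.49 and 8.51 in nitrogen-fed wild type (log2 difference -0.87, adjusted p = 6.42e-05). In the nitrogen-starved groups it read 9.37, 9.13 and 9.17 in LBD38 overexpressers and 8.68, 8.71 and 8.51 in wild type (log2 difference 0.59, adjusted p = 0.000233).

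The plastid NDH-complex gene ndhE was lower in lbd38, with 5.74, 5.95 and 6.06 in lbd38 and 6.29, 6.29 and 6.56 in nitrogen-fed wild type (log2 difference -0.47, adjusted p = 0.0432), and higher in the overexpresser (log2 difference 0.7, adjusted p = 0.000197). No other of the 69 measured plastid genes was called in lbd38. PDF1.2 and STZ were higher in lbd38 as well as in the overexpresser, with log2 differences of 2.6 and 1.3 in the mutant (adjusted p = 0.00356 and 0.0182). NRT2.5 had a log2 difference of -0.02 in lbd38, the anthocyanin gene AT4G14090 of -0.16 and SPCH of -0.38, none past the threshold. QQS (AT3G30720), a regulator of carbon and nitrogen allocation, was higher in lbd38 by 1.97 and did not pass in the overexpresser (log2 difference 0.05).

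**Figure D4:**
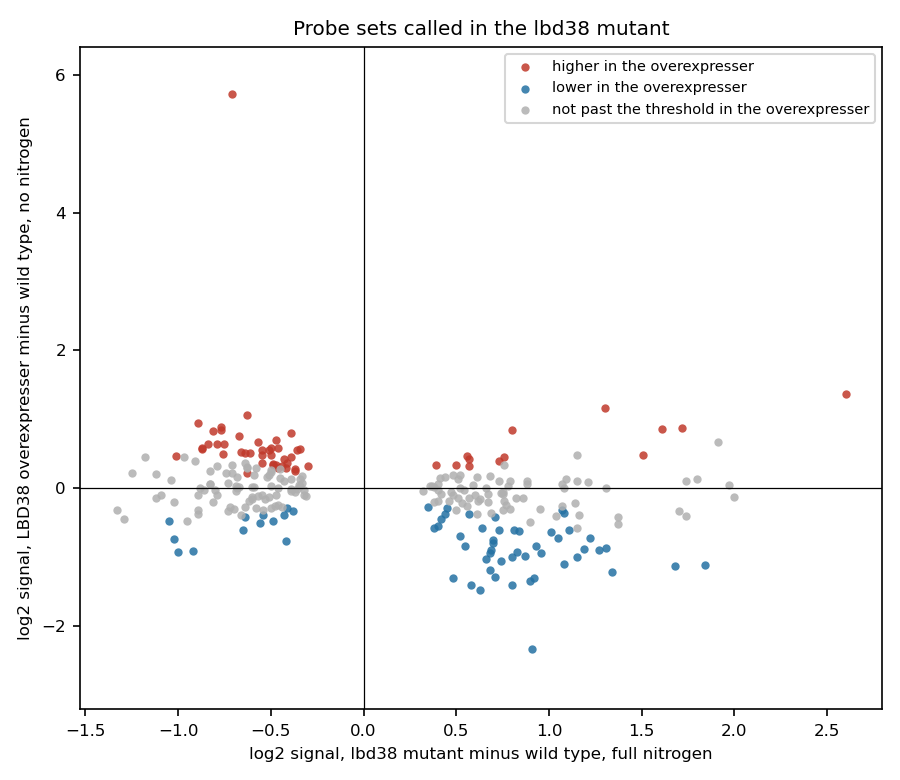
Log2 difference of the lbd38 mutant from wild type with full nitrogen (horizontal axis) and of the LBD38 overexpresser from wild type without nitrogen (vertical axis) for the 270 probe sets called in the mutant. Blue points to the right are the 48 that were higher in lbd38 and lower in the overexpresser, and red points to the left are the 42 with the reverse pattern; the single point above 5 is 252220_at.

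The LBD38 overexpresser was compared directly with the LBD37 overexpresser, grown in the same way. It differed at 11 probe sets (limma, adjusted p under 0.05), 0.0484% of all: 9 were higher and 2 lower with LBD38. At an unadjusted p under 0.05 there were 3151. Replicate 3 of the LBD37 overexpresser stood apart from the rest of the series (interquartile range 2.89). Without it the count was 14, and it was 741 without replicate 2 of the LBD37 overexpresser and 20 without replicate 1 of the LBD38 overexpresser. Against the same wild-type arrays without nitrogen, NRT2.5 had log2 differences of -3.26 with LBD38 and -2.90 with LBD37, and AT4G14090 of -1.66 with LBD38 and -2.02 with LBD37. SPCH had 1.46 with LBD38 and 1.35 with LBD37, and psaA 1.25 with LBD38 and 1.00 with LBD37. PDF1.2 had 1.37 with LBD38 and 3.20 with LBD37, and the direct difference did not pass (log2 difference -1.82, adjusted p = 0.227).

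Among the 11, AT1G59265 read 6.15, 6.17 and 6.24 with LBD38 and 4.62, 4.44 and 4.45 with LBD37 (log2 difference 1.68, adjusted p = 5.11e-09), and wild type without nitrogen read 4.35, 4.49 and 4.44. The LBD38 overexpresser stood alone above the other 2 groups. AT1G04780 followed the same pattern, with 9.99, 10.09 and 9.72 with LBD38, 8.82, 8.91 and 8.87 with LBD37 and 8.88, 9.02 and 9.01 in wild type. At AT3G03920, AT2G44970 and AT2G33850 the LBD37 overexpresser lay farther from wild type than the LBD38 overexpresser did. AT3G03920 read 9.98, 10.3 and 10.08 with LBD38, 11.88, 11.9 and 11.77 with LBD37 and 10.1, 10.13 and 10.19 in wild type. Among probe sets with no listed gene, 246996_at read 6.86, 7.01 and 7.37 with LBD38, 12.9, 13.15 and 13.36 with LBD37 and 8.06, 8.12 and 7.83 in wild type. It was thus lower with LBD38 than in wild type (log2 difference -0.92, adjusted p = 0.000127), as 252220_at was with LBD37 (log2 difference -1.09). Whether 252220_at and 246996_at detect the overexpressed genes themselves was not tested.

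**Figure D5:**
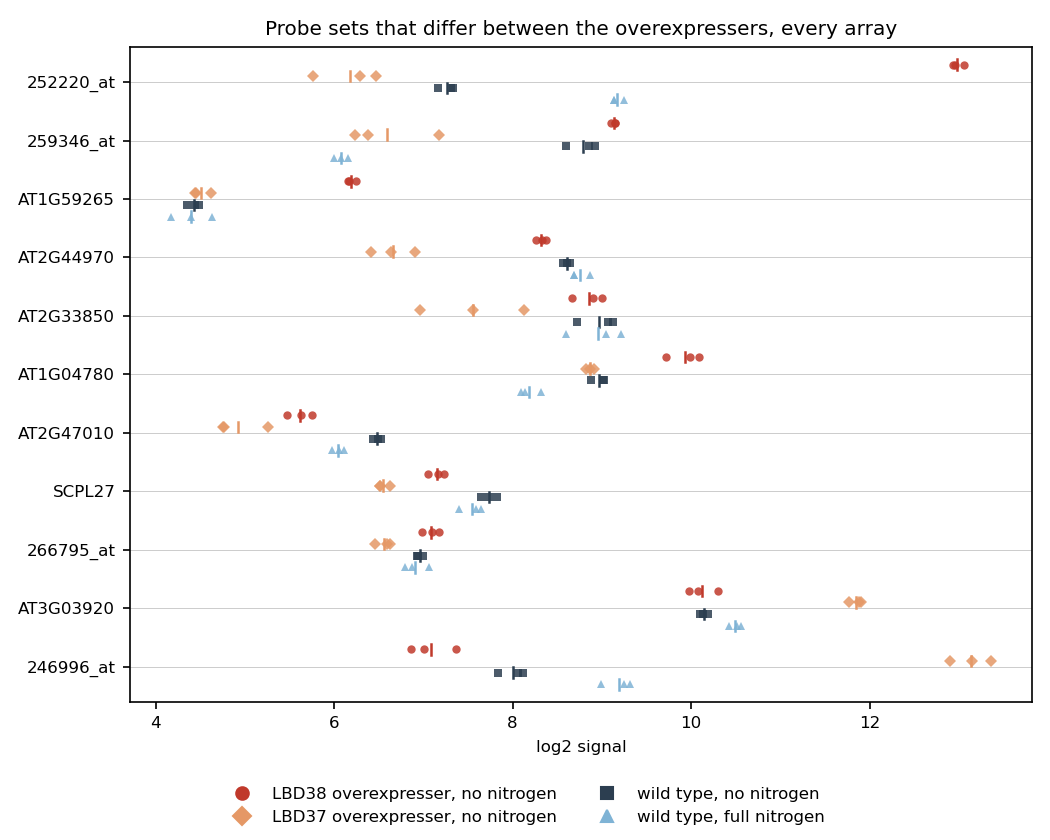
Log2 signal (horizontal axis) on every array for the 11 probe sets that differed between the LBD38 and LBD37 overexpressers, with both wild-type groups; points are arrays and short lines are group means. For 252220_at the LBD38 overexpresser is near 13 and for 246996_at the LBD37 overexpresser is.

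The largest fall among probe sets with no listed gene was that of 266385_at, which read 6.79, 9.20 and 8.71 in LBD38 overexpressers and 11.52, 11.97 and 12.43 in wild type without nitrogen. The groups were far apart but the overexpresser arrays spread widely (log2 difference -3.74, SE 0.55, adjusted p = 0.000109).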

How the data were processed

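Total RNA was biotin-labelled and hybridized to Affymetrix ATH1 arrays. The authors deposited log2 values, 1 per probe set and array, made by RMA, per the submitters' processing notes, in a version that the sources used here do not state. Array images were not used here. The 18 arrays were fitted together in R 4.3.3 by limma 3.58.1, using lmFit and eBayes with 6 group means (12 residual and 5.89 prior degrees of freedom). Tests were two-sided, called at a Benjamini-Hochberg adjusted p of 0.05 over all 22746 probe sets. Standard errors pool the spread of all groups. The 64 control probe sets were read only as array checks, by exact permutation tests. The fit was tested on simulated data.

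The platform's table gives 1 gene for 13513 probe sets, several for 503 and none for 8730; symbols come from RefSeq's TAIR10.1 table. Named were the 15 largest rises and 15 largest falls past the threshold without overlap between arrays and with 1 listed gene, list members, the largest unnamed rise and fall, and up to 5 genes a direction in the other comparisons. SCPL27 and 3 further unnamed probe sets of the comparison between overexpressers, and the genes named as called in both the mutant and the overexpresser, were chosen after their values were seen. The groups, gene lists and named-gene rule were chosen with earlier results of these data known. Alternatives were a replicate block, other scalings, filters and fits, and leaving out each array.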

Additional observations from a re-analysis of the deposited data

Results flagged for a closer look

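The effect of overexpression differed between LBD38 and LBD37, by a direct test of the difference (limma, adjusted p under 0.05), at 11 probe sets. Log2 differences of the LBD38 from the LBD37 overexpresser were 6.81 for 252220_at, 2.54 for 259346_at, 1.68 for AT1G59265, 1.67 for AT2G44970 and 1.31 for AT2G33850. They were 1.07 for AT1G04780, 0.69 for AT2G47010, 0.60 for SCPL27, 0.53 for 266795_at, -1.73 for AT3G03920 and -6.06 for 246996_at. AT2G47010 and SCPL27, a serine carboxypeptidase-like gene, were lower than in wild type in both overexpressers and lower with LBD37 than with LBD38. With LBD38, AT2G44970 was slightly lower than in wild type (log2 difference -0.28, adjusted p = 0.049), a call lost in 7 settings, among them the removal of any 1 of the 6 arrays (adjusted p up to 0.177), and AT2G33850 did not pass that test (-0.11).

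In the control probe sets, which no comparison of genes used, all 18 hybridization controls were higher on the 3 LBD38 overexpresser arrays than on the 3 wild-type arrays without nitrogen. Their median was 9.27, 9.60 and 9.29 on the LBD38 overexpresser arrays and 9.02, 9.11 and 9.13 on the wild-type arrays, a median difference of 0.34.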

How the results depend on the processing

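Between the LBD38 overexpresser and wild type without nitrogen, 4076 probe sets were called by limma at an adjusted p of 0.05. Leaving out 1 array at a time gave 2603 to 3539, with 1270 to 1782 higher, and requiring a change of at least 2-fold left 430, with 90 higher and 340 lower. Under 8 other settings, 1 of them added after seeing the data, the count was 3513 to 5684. Of the 30 largest changes PDF1.2 alone lost its call. Another 209 probe sets were followed, from the lists, the other comparisons and the unnamed probe sets. None of these or of the 30 changed direction with a call in the settings where it was tested. With the dimmest 40% left out 21 of the 30 and 170 of the 209 were tested. At least 2-fold changes numbered 52 between lbd38 and wild type with full nutrition, 2290 between starved and nitrogen-fed wild type, and 1313 between the LBD38 overexpresser and nitrogen-fed wild type. The count for lbd38 was 120 to 266 with 1 array left out, and 491 without replicate 3 of the LBD37 overexpresser, an alternative chosen after seeing the data. The 11 between the overexpressers became 7 with those 2 groups fitted alone, 33 with array weights, and 8 to 741 with 1 array left out. The cause of these shifts was not tested.

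Replicates with the same number did not deviate together (r of 0.19, 0.15 and -0.18 for the 3 pairs of the overexpresser and starved wild type), so the numbers were not taken as pairs. With the replicate number as a block, 4228 probe sets were called there, and 306 for lbd38, 13 between the overexpressers, 11589 between the wild-type groups and 9478 for the overexpresser against nitrogen-fed wild type. Signals under the lower quartile of these 6 arrays, 5.19 to 5.21, limit the folds of genes that read that low on at least 1 array: the falls of AT5G02580, AT4G33720, AT1G78410, AT5G59670, AT3G25790 and CML37, and the rises of AT1G59265, AT4G27654, AT4G27657, AT3G15310, PDF1.2, AT1G47400 and UGT78D3. With 3 arrays a group, the exact permutation test cannot reach a p under 0.1.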

Other observations

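Symbol families with at least 8 measured genes, and the members named from them, were chosen after the values were seen. Family counts were read against the 9.26% of all probe sets higher and the 8.66% lower under LBD38 overexpression (limma). Of 47 UGT genes, which encode small-molecule glycosyltransferases, 15 were higher (31.9%) and 6 lower (12.8%), from UGT72E1 at a log2 difference of 0.95 to UGT73D1 at -1.46. Of 8 glutamate receptor-like genes 4 were lower and none higher. Of 26 cytochrome P450 (CYP) genes 6 were lower (23.1%), led by CYP71B28 at -1.75, and the 3 higher (11.5%) are near the share of all probe sets. The SWEET sugar transporter genes stood near that share on both sides, with 1 of 14 higher (7.14%) and 2 lower (14.3%). A single member had a large fall: SWEET13 read 6.88, 7.62 and 7.95 in LBD38 overexpressers and 9.46, 9.27 and 9.08 in wild type without nitrogen (log2 difference -1.78, adjusted p = 5.41e-06).

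Single genes of cell-wall families were higher, beside family medians near 0: the median log2 difference was 0.04 over 22 TBL genes, 0 over 10 alpha-expansin genes and -0.12 over 9 XTH genes. Of these 5 TBL (22.7%), 2 expansin and 3 XTH genes were higher, and 2 XTH genes were lower. TBL45 read 10.15, 9.79 and 9.86 in LBD38 overexpressers and 8.9, 8.9 and 8.98 in wild type (log2 difference 1.01), and XTH32 read 9.76, 9.27 and 9.30 in LBD38 overexpressers and 8.11, 8.11 and 8.36 in wild type (log2 difference 1.25). EXPA15 had a log2 difference of 1.17. TBL45, XTH32 and EXPA15 were picked by their values, so the lack of overlap between their groups is no separate support.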
